A study of Mus musculus with 9 samples.

Results

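Cholesterol and fatty acid synthesis was followed through 31 genes, chosen by name from the 35275 genes of the processed table: 18 enzymes of the sterol pathway, 5 regulators of the SREBP (sterol regulatory element binding protein) system, the sterol transfer protein gene Stard4 and 7 genes of fatty acid synthesis and desaturation. The choice was made with earlier results of these data known. All 31 were found, and all 31 passed the filter on low counts. The cells were wild type mouse embryonic fibroblasts (MEFs) of the C57Bl/6 strain, grown in medium with fetal bovine serum. One group stayed in iso-osmolar medium (300 mOsm). The others received added sucrose, 200 mM for a total of 500 mOsm and 300 mM for a total of 600 mOsm, for 3 h. Each treatment had 3 libraries of poly-T selected mRNA, 9 in all, and the sources used here do not say whether they came from separate cultures, so p-values measure the spread between these libraries, which may be technical. Levels are given in FPKM (fragments on a gene scaled by its length and by the library total). Differences are log2 fold changes of TMM-normalized counts with their standard error (SE), and a gene is called higher or lower when its Benjamini-Hochberg adjusted p in the quasi-likelihood test of edgeR was under 0.05.

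Cells make cholesterol from acetyl-CoA through mevalonate, farnesyl pyrophosphate, squalene and lanosterol, and they build fatty acids from the same acetyl-CoA. The genes of both routes are known targets of the SREBP transcription factors. In sterol-poor cells the escort protein SCAP carries SREBP precursors from the endoplasmic reticulum to the Golgi for cleavage, and in sterol-rich cells the INSIG proteins hold the complex back. Fibroblasts in culture run this pathway actively, and serum lipoproteins are a second source of their cholesterol.

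The libraries held 21716042 to 26740832 counts on genes. Of 12 fibroblast marker genes, 10 were above 1 FPKM in every library, led by Vim, while Lum averaged 0.00453 FPKM, and the summed level of the 12 was 5510 to 5595 FPKM in the iso-osmolar libraries, 5393 to 5650 FPKM at 500 mOsm and 6246 to 6305 FPKM at 600 mOsm. Of the 7 leukocyte markers, 2 were above 1 FPKM in every library, led by Lyz2 at a mean of 7.25 FPKM. Of the endothelial, adipocyte and epithelial markers 0 were. Their highest means were 1.27 FPKM (Pecam1), 0.430 FPKM (Cfd) and 0.269 FPKM (Cdh1). The sums of the markers of these other cell types differed between the groups. The 5 endothelial markers summed to 0.202 to 0.246 FPKM, 3.36 to 3.84 FPKM and 0.577 to 0.901 FPKM in these 3 groups, the 7 leukocyte markers to 6.12 to 9.81, 8.74 to 19.5 and 8.29 to 17.3 FPKM, the 7 epithelial markers to 0.104 to 0.278, 1.19 to 1.49 and 0.140 to 0.324 FPKM, and the 7 adipocyte markers to 0.594 to 0.716, 0.883 to 1.34 and 0.686 to 1.07 FPKM. The epithelial marker Krt5 was at 0 in every library. The part of these shifts in the results for the lipid genes was not tested. In such bulk RNA, fewer cells of a type and less RNA per cell cannot be told apart.

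Most of the genes that changed were lower under sucrose. At 500 mOsm 15 of the 31 genes fell against iso-osmolar and 0 rose, where 14.8% of all 13082 genes tested were called lower and 13.2% higher. Of the 31, 0 were higher at 500 mOsm at an unadjusted p under 0.05 in edgeR, and DESeq2 and limma also called 0 higher. At 600 mOsm 17 fell and 2 rose (all genes: 20.0% lower and 15.1% higher). The median log2 fold change of the 31 was -0.13 at 500 mOsm and -0.25 at 600 mOsm, beside 0.01 over all genes tested in each comparison. In TMM-normalized counts, all 3 libraries lay below all 3 iso-osmolar libraries for 16 genes at 500 mOsm (20.8% of all genes) and for 20 genes at 600 mOsm (25.5% of all genes). They lay above them for 0 and 1 genes (20.1% and 22.9% of all genes). In FPKM, which are scaled by the library total alone, they lay below for 17 and 19 genes (20.8% and 26.3% of all genes). On that scale they lay above for 0 and 3 genes (20.1% and 21.6% of all genes). The histograms of fold changes place the 31 genes beside all genes.

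**Figure D1:**
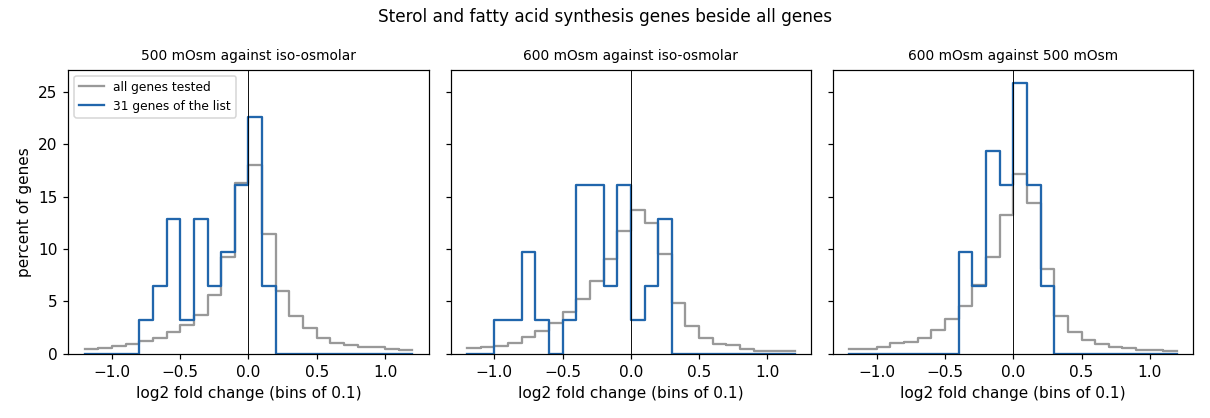
Percent of genes (y axis) by log2 fold change in bins of 0.1 (x axis) for the 31 sterol and fatty acid genes (blue) and all 13082 genes tested (grey) in the 3 comparisons. In both comparisons with iso-osmolar the 31 genes lie further to the left, with medians of -0.13 and -0.25, and between the intensities the 2 outlines share their centre; 5.48 to 7.60% of all genes lie beyond the axis.

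The changes were small in size and fell into a few patterns. The 14 genes Hmgcs1, Mvd, Fdft1, Sqle, Lss, Cyp51, Msmo1, Nsdhl, Hsd17b7, Dhcr7, Insig1, Stard4, Fasn and Scd1 were lower at both intensities. Idi1 was called lower at 500 mOsm alone, Sc5d, Acly and Scd2 were called lower at 600 mOsm alone, and Mvk and Ebp were called higher at 600 mOsm alone. The other 11 genes, Acat2, Pmvk, Fdps, Tm7sf2, Srebf1, Srebf2, Scap, Insig2, Acaca, Fads1 and Fads2, passed the test in neither comparison. None of the 31 genes changed by a log2 of 1 or more.

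**Figure D2:**
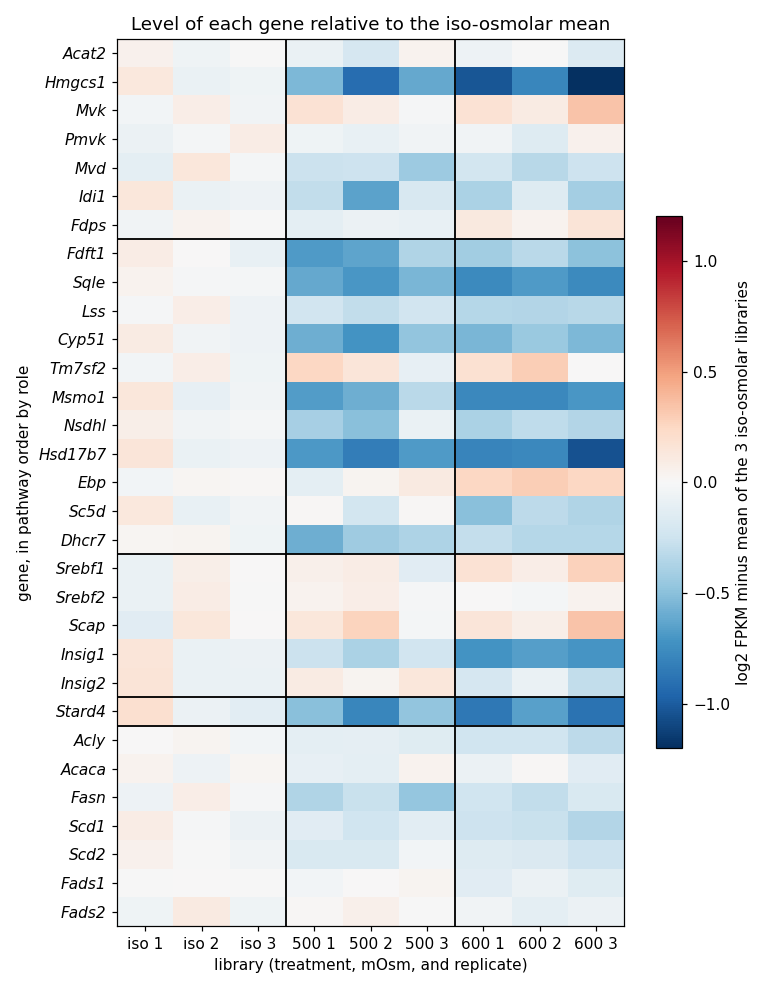
Log2 FPKM of each of the 31 genes (rows, by role) in each of the 9 libraries (columns), minus the mean of the 3 iso-osmolar libraries. Blue marks lower levels, and the rows that are blue in all 6 sucrose libraries include, beside others, those of Hmgcs1, Sqle, Cyp51, Hsd17b7, Insig1 and Stard4.

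RefSeq promoter windows of GRCm38.p6, from 250 bases before to 50 bases after a start site, matched 24 of the 31 genes. The 4 windows are shown because they hold the letters discussed here, with the classical sterol regulatory element TCACNCCAC and the CCAAT box (the NF-Y site that is known to work beside SREBP) in capitals, on either strand. Hmgcs1 and Insig1 carried calls in all 3 comparisons, Hsd17b7 had the largest fall of the 31 at 500 mOsm, and Srebf2 encodes the factor itself and was not called.
Hmgcs1 (chr13:119690101-119690400, plus strand): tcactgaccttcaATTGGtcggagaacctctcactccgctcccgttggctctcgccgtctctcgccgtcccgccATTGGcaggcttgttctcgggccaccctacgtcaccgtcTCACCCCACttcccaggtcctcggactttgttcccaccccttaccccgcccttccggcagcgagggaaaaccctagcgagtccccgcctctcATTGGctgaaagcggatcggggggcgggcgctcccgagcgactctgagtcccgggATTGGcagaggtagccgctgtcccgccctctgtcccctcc
Insig1 (chr5:28071162-28071461, plus strand): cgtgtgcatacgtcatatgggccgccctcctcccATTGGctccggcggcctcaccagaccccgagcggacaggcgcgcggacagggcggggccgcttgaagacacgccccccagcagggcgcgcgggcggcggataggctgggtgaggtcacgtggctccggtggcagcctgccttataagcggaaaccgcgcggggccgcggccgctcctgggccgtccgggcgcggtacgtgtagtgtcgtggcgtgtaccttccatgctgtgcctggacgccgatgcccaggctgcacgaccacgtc
Hsd17b7 (chr1:169969156-169969455, minus strand): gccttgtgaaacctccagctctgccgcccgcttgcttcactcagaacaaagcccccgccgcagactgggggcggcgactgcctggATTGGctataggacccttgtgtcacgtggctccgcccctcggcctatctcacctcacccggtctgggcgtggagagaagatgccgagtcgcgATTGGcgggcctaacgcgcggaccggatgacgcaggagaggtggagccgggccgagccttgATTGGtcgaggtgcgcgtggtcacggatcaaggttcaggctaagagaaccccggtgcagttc
Srebf2 (chr15:82147019-82147318, plus strand): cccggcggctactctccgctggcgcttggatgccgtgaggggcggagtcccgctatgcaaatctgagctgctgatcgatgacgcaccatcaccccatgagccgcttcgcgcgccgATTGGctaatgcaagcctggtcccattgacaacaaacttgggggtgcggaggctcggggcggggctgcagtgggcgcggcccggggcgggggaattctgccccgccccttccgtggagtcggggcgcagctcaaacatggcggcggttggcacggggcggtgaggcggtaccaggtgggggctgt

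The letters TCACNCCAC occurred in 1 of the 24 matched genes, Hmgcs1, as TCACCCCAC starting 137 bases before the start site, and in 1.41% of the 9290 tested genes that have a window. The CCAAT letters occurred in 20 of the 24 genes and in 42.9% of tested genes. They were in all 10 of the matched genes that were lower at both intensities, and in 5 of the 9 matched genes called in neither. The GC box GGGCGG was in 21 of the 24 genes (70.2% of tested genes), and the E-box CACGTG in 5 of the 24, Dhcr7, Hsd17b7, Insig1, Sc5d and Scap (11.8% of tested genes). No 2 different motifs overlapped in these windows. Some genes have several windows and counted once, and a match is a description of letters, not of a bound site. Dhcr7, Insig2, Pmvk and Srebf1 counted as holding CCAAT although some of their windows lack it. The only window of Acaca (chr11:84195188-84195487) lies inside that gene (chr11:84129672-84401651) and lacks it. Whether genes lower at both intensities and genes called in neither differ in these letters was not tested.

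Of the 7 enzymes that lead from acetyl-CoA to farnesyl pyrophosphate, 3 fell at 500 mOsm (42.9%, beside 14.8% of all genes) and 0 rose (beside 13.2%). At 600 mOsm 2 fell (28.6%, beside 20.0%) and 1 rose (14.3%, beside 15.1%). Hmgcs1, the cytosolic HMG-CoA synthase (ENSMUSG00000093930, chr13:119690462-119708086), had 36.3, 31.3 and 32.1 FPKM in the iso-osmolar libraries, 22.9, 17.6 and 21.7 FPKM at 500 mOsm and 16.2, 19.3 and 14.3 FPKM at 600 mOsm. The sucrose libraries all lay below the iso-osmolar ones, and the 600 mOsm libraries overlapped those at 500 mOsm. At 500 mOsm Hmgcs1 differed from iso-osmolar by -0.68 ± 0.103 (log2 fold change and SE, adjusted p 0.000265) and at 600 mOsm by -0.99 ± 0.104 (adjusted p 1.54e-05). That is the largest change among the 31 genes at 600 mOsm, where it fell by 49.5%.

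Mvd, which decarboxylates mevalonate pyrophosphate, had 31.8, 38.0 and 34.0 FPKM in the iso-osmolar libraries, 28.9, 29.1 and 25.5 FPKM at 500 mOsm and 29.7, 27.4 and 29.1 FPKM at 600 mOsm. Every sucrose library lay below every iso-osmolar one. Against iso-osmolar, Mvd had a log2 fold change of -0.31 ± 0.0821 (SE) at 500 mOsm, with an adjusted p of 0.0124, and of -0.25 ± 0.0822 at 600 mOsm, with an adjusted p of 0.0327. The call at 600 mOsm was lost in 5 of 9 fits without 1 library (iso-osmolar replicate 2 or 3, or any 600 mOsm replicate). Log2 fold changes in these 5 fits were -0.27 to -0.17, with adjusted p of 0.0522 to 0.144. That call was also lost with the replicate number as a further factor (-0.25, adjusted p 0.0663). The call at 500 mOsm was lost without iso-osmolar replicate 2 (-0.23, adjusted p 0.0583) or 500 mOsm replicate 3 (-0.25, 0.0527). Idi1, the isopentenyl pyrophosphate isomerase, had 9.16, 7.87 and 7.96 FPKM in the iso-osmolar libraries, 6.79, 5.31 and 7.28 FPKM at 500 mOsm and 6.38, 7.48 and 6.27 FPKM at 600 mOsm. On the log2 scale, Idi1 differed from iso-osmolar by -0.36 ± 0.11 (SE, adjusted p 0.0259) at 500 mOsm and by -0.29 ± 0.11 (adjusted p 0.0561) at 600 mOsm, so that only 500 mOsm passed although no library overlapped the iso-osmolar ones at either intensity. At 600 mOsm Idi1 passed in 5 alternative fits (adjusted p 0.0162 to 0.0473). The call at 500 mOsm was lost without iso-osmolar replicate 1 (-0.30, adjusted p 0.0961) or 500 mOsm replicate 2 (-0.26, 0.0803). It was also lost with the replicate number as a further factor (-0.37, adjusted p 0.0554).

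The other 4 enzymes of this stretch were not called lower at either intensity. Fdps, the farnesyl pyrophosphate synthase and the most abundant of the sterol enzymes per length, had 222, 236 and 229 FPKM in the iso-osmolar libraries, 211, 218 and 215 FPKM at 500 mOsm and 248, 236 and 254 FPKM at 600 mOsm. Fdps thus had log2 fold changes of -0.09 ± 0.0516 (SE, adjusted p 0.222) at 500 mOsm and 0.12 ± 0.0515 (adjusted p 0.0816) at 600 mOsm, and the latter passed without 600 mOsm replicate 2 (0.17, adjusted p 0.0300). Mvk, the mevalonate kinase, had 41.5, 44.8 and 41.1 FPKM in the iso-osmolar libraries, 47.8, 45.3 and 41.9 FPKM at 500 mOsm and 47.8, 45.3 and 53.8 FPKM at 600 mOsm. The 600 mOsm values lay just above the iso-osmolar ones in FPKM and overlapped them in TMM-normalized counts. Its log2 fold change against iso-osmolar was 0.09 ± 0.0787 (SE) at 500 mOsm (adjusted p 0.475) and 0.23 ± 0.0787 at 600 mOsm (adjusted p 0.0402). The call at 600 mOsm was lost without iso-osmolar replicate 1 or 3 or 600 mOsm replicate 1 or 3 (log2 fold changes 0.14 to 0.25, adjusted p 0.0716 to 0.180). It was also lost with counts corrected for gene length (0.23, adjusted p 0.0597) or with the replicate number as a further factor (0.23, 0.0878). Acat2, which condenses acetyl-CoA to acetoacetyl-CoA, ranged from 45.2 to 53.9 FPKM over the 9 libraries and Pmvk, the phosphomevalonate kinase, from 34.9 to 41.3 FPKM. Their log2 fold changes against iso-osmolar lay between -0.07 and -0.02, and their groups overlapped.

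**Figure D3:**
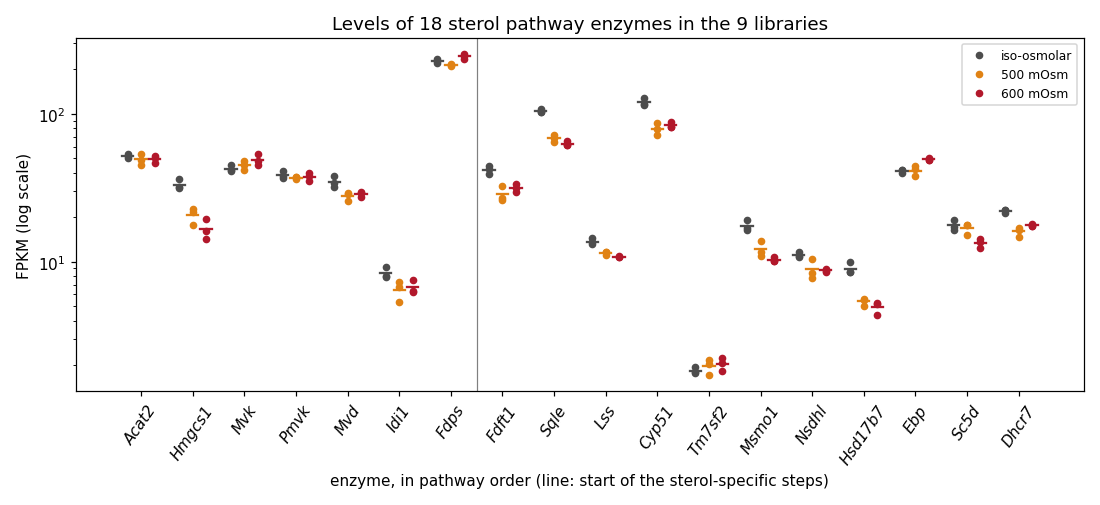
FPKM on a log axis (y) of the 18 sterol enzymes in pathway order (x), with 1 point per library, short lines for group means and colours for iso-osmolar, 500 mOsm and 600 mOsm. Among the 11 steps right of the vertical line, 8 were lower at both intensities, while Ebp at 600 mOsm lay above its iso-osmolar points.

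Most of the sterol-specific steps after farnesyl pyrophosphate fell. Of these 11 enzymes, 8 fell at 500 mOsm (72.7%, beside 14.8% of all genes) and 0 rose (beside 13.2%). At 600 mOsm 9 fell (81.8%, beside 20.0%) and 1 rose (9.09%, beside 15.1%). Their median log2 fold changes were -0.45 at 500 mOsm and -0.37 at 600 mOsm. Sqle, the squalene epoxidase that is a rate-limiting step of sterol synthesis (ENSMUSG00000022351, chr15:59315077-59331192), had 108, 104 and 103 FPKM in the iso-osmolar libraries, 68.6, 64.6 and 71.8 FPKM at 500 mOsm and 61.9, 65.5 and 61.6 FPKM at 600 mOsm. Every sucrose library lay far below every iso-osmolar one, and the 600 mOsm libraries overlapped those at 500 mOsm in FPKM but lay below them in TMM-normalized counts. At 500 mOsm Sqle differed from iso-osmolar by -0.62 ± 0.0444 (log2 fold change and SE, adjusted p 4.73e-07) and at 600 mOsm by -0.72 ± 0.0446 (adjusted p 1.61e-07). Fdft1, the squalene synthase, had 44.6, 42.1 and 39.3 FPKM in the iso-osmolar libraries, 26.2, 27.1 and 32.6 FPKM at 500 mOsm and 31.4, 33.6 and 29.8 FPKM at 600 mOsm. Its 3 iso-osmolar libraries were the highest of the 9. Against iso-osmolar, Fdft1 had a log2 fold change of -0.55 ± 0.0764 (SE) at 500 mOsm, with an adjusted p of 0.000134, and of -0.39 ± 0.0763 at 600 mOsm, with an adjusted p of 0.00167. Ctsb overlaps Fdft1 on the opposite strand, and the sources used here do not give the strand setting of the counts, so reads of the overlap cannot be told apart.

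Cyp51, the lanosterol demethylase (ENSMUSG00000001467, chr5:4081145-4104746), had 128, 116 and 115 FPKM in the iso-osmolar libraries, 79.4, 72.5 and 86.2 FPKM at 500 mOsm and 81.5, 87.5 and 82.0 FPKM at 600 mOsm. No sucrose library reached the iso-osmolar range. On the log2 scale, Cyp51 differed from iso-osmolar by -0.59 ± 0.0598 (SE, adjusted p 9.31e-06) at 500 mOsm and by -0.49 ± 0.0597 (adjusted p 4.7e-05) at 600 mOsm. Hsd17b7, a keto reductase of the demethylation steps, had 9.89, 8.47 and 8.56 FPKM in the iso-osmolar libraries, 5.55, 5.04 and 5.59 FPKM at 500 mOsm and 5.16, 5.24 and 4.34 FPKM at 600 mOsm, so that each sucrose library was below 6 FPKM and each iso-osmolar one above 8. Hsd17b7 thus had log2 fold changes of -0.73 ± 0.0838 (SE, adjusted p 2.58e-05) at 500 mOsm and -0.85 ± 0.0845 (adjusted p 8.86e-06) at 600 mOsm. Msmo1, the methylsterol oxidase that acts before it, had 19.1, 16.3 and 16.9 FPKM in the iso-osmolar libraries, 10.9, 11.6 and 13.9 FPKM at 500 mOsm and 10.1, 10.1 and 10.7 FPKM at 600 mOsm. Its log2 fold change against iso-osmolar was -0.52 ± 0.088 (SE) at 500 mOsm (adjusted p 0.000636) and -0.73 ± 0.089 at 600 mOsm (adjusted p 4.82e-05). Msmo1 fell by 30.2% at 500 mOsm and fell by 39.8% at 600 mOsm, and Hsd17b7 fell by 39.8% and fell by 44.6%.

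Dhcr7, the reductase of the last step of one branch, had 22.5, 22.5 and 21.2 FPKM in the iso-osmolar libraries, 14.7, 16.5 and 17.0 FPKM at 500 mOsm and 18, 17.4 and 17.4 FPKM at 600 mOsm, with the 500 mOsm libraries lowest. At 500 mOsm Dhcr7 differed from iso-osmolar by -0.45 ± 0.0638 (log2 fold change and SE, adjusted p 0.000148) and at 600 mOsm by -0.31 ± 0.0637 (adjusted p 0.00268). Lss, the cyclase that makes lanosterol, had 13.5, 14.4 and 13.1 FPKM in the iso-osmolar libraries, 11.7, 11.1 and 11.7 FPKM at 500 mOsm and 10.8, 10.7 and 10.8 FPKM at 600 mOsm. Against iso-osmolar, Lss had a log2 fold change of -0.25 ± 0.053 (SE) at 500 mOsm, with an adjusted p of 0.00315, and of -0.33 ± 0.0532 at 600 mOsm, with an adjusted p of 0.000509, and neither passed when counts were corrected for gene length (-0.21, adjusted p 0.0679, and -0.09, adjusted p 0.432). Nsdhl, the dehydrogenase of the demethylation complex, had 11.6, 10.8 and 10.9 FPKM in the iso-osmolar libraries, 8.42, 7.81 and 10.5 FPKM at 500 mOsm and 8.51, 8.99 and 8.66 FPKM at 600 mOsm, with 500 mOsm replicate 3 close to the iso-osmolar libraries. On the log2 scale, Nsdhl differed from iso-osmolar by -0.31 ± 0.0955 (SE, adjusted p 0.0263) at 500 mOsm and by -0.33 ± 0.0959 (adjusted p 0.0192) at 600 mOsm. Its call at 500 mOsm was lost without iso-osmolar replicate 1 or 2 or 500 mOsm replicate 1 or 2 (log2 fold changes -0.33 to -0.24, adjusted p 0.0502 to 0.103) or when only the 2 groups were fitted (adjusted p 0.0536), and at 600 mOsm without iso-osmolar replicate 1 or 600 mOsm replicate 1 (-0.30 and -0.31, 0.0642 and 0.0660).

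The remaining 3 late enzymes differed from this. Sc5d, the lathosterol desaturase, had 19.2, 16.5 and 17.1 FPKM in the iso-osmolar libraries, 17.8, 15.1 and 17.7 FPKM at 500 mOsm and 12.4, 14.2 and 13.6 FPKM at 600 mOsm, with all 600 mOsm libraries but only 1 of the 500 mOsm libraries below the iso-osmolar range. Sc5d thus had log2 fold changes of -0.06 ± 0.0809 (SE, adjusted p 0.652) at 500 mOsm and -0.37 ± 0.082 (adjusted p 0.0038) at 600 mOsm. Ebp, the sterol isomerase, had 40.1, 41.6 and 41.5 FPKM in the iso-osmolar libraries, 37.9, 42.1 and 44.1 FPKM at 500 mOsm and 48.6, 50.2 and 48.8 FPKM at 600 mOsm. Its 3 libraries at 600 mOsm were the highest of the 9. Its log2 fold change against iso-osmolar was 0.01 ± 0.0583 (SE) at 500 mOsm (adjusted p 0.895) and 0.28 ± 0.0581 at 600 mOsm (adjusted p 0.00254). Tm7sf2, a sterol reductase, was the lowest of the 31 genes at 1.70 to 2.23 FPKM, with overlapping groups and log2 fold changes of 0.11 ± 0.149 and 0.18 ± 0.149. It overlaps Vps51 on the same strand.

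**Figure D4:**
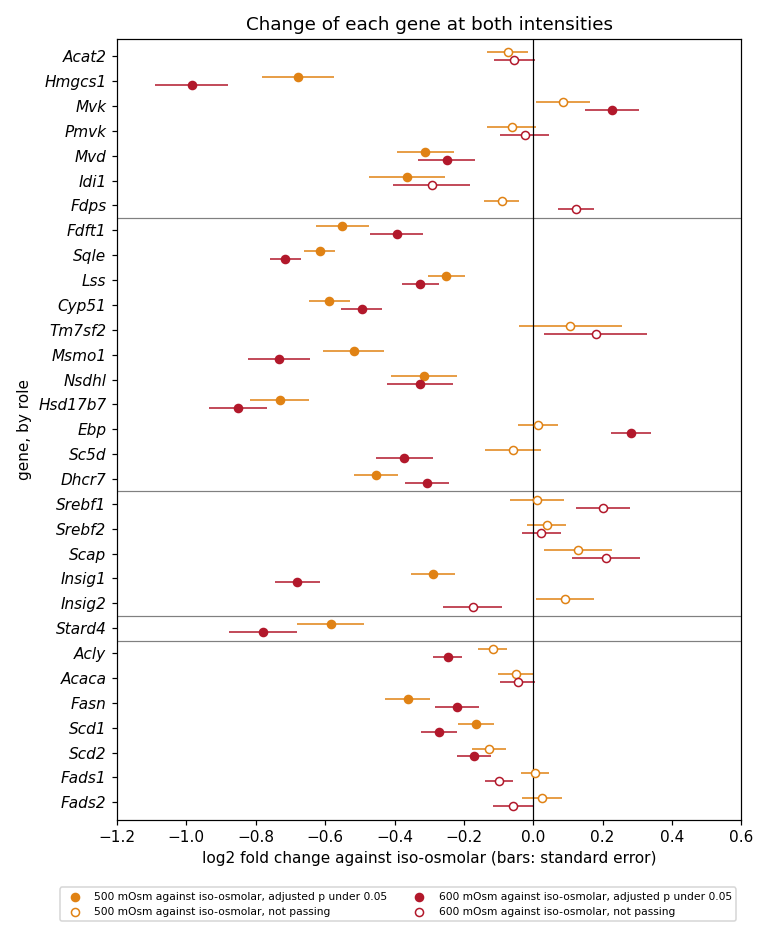
Log2 fold change against iso-osmolar (x axis, bars are the SE) of the 31 genes (y axis, by role) at 500 mOsm (orange) and 600 mOsm (red), filled where the adjusted p was under 0.05. The 14 genes with both points filled all lie left of 0, from Hmgcs1 at -0.99 to Scd1 at -0.16.

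Of the 5 regulators, Insig1 was the only one called against iso-osmolar. That is 20% lower at each intensity, beside 14.8% of all genes at 500 mOsm and 20.0% at 600 mOsm. At 600 mOsm the share was thus that of all genes. Insig1, which retains the SCAP and SREBP complex and is itself a sensitive SREBP target (ENSMUSG00000045294, chr5:28071363-28078662), had 36.8, 31.5 and 31.5 FPKM in the iso-osmolar libraries, 27.8, 25.5 and 28.2 FPKM at 500 mOsm and 20.2, 20.9 and 20.3 FPKM at 600 mOsm. The 3 groups did not overlap, and the level stepped down with osmolarity. At 500 mOsm Insig1 differed from iso-osmolar by -0.29 ± 0.0636 (log2 fold change and SE, adjusted p 0.00405) and at 600 mOsm by -0.68 ± 0.0644 (adjusted p 5.97e-06), so that against iso-osmolar Insig1 fell by 18.1% at 500 mOsm and fell by 37.6% at 600 mOsm. Insig2, its relative, had 7.80, 6.62 and 6.63 FPKM in the iso-osmolar libraries, 7.50, 7.17 and 7.69 FPKM at 500 mOsm and 6.10, 6.62 and 5.69 FPKM at 600 mOsm. Against iso-osmolar, Insig2 had a log2 fold change of 0.09 ± 0.0839 (SE) at 500 mOsm, with an adjusted p of 0.475, and of -0.17 ± 0.0851 at 600 mOsm, with an adjusted p of 0.133.

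The transcription factors and their escort were not called, though some alternative fits called Srebf1 and Scap at 600 mOsm. Srebf2, which encodes the sterol-oriented SREBP, had 134, 152 and 141 FPKM in the iso-osmolar libraries, 147, 150.3 and 141 FPKM at 500 mOsm and 143, 139.6 and 146 FPKM at 600 mOsm. On the log2 scale, Srebf2 differed from iso-osmolar by 0.04 ± 0.0566 (SE, adjusted p 0.668) at 500 mOsm and by 0.02 ± 0.0566 (adjusted p 0.781) at 600 mOsm. Srebf1, which encodes the form oriented to fatty acids, had 49.3, 54.8 and 52.3 FPKM in the iso-osmolar libraries, 54.2, 55.3 and 47.5 FPKM at 500 mOsm and 58.8, 55.1 and 63.2 FPKM at 600 mOsm. The 600 mOsm values lay just above the iso-osmolar ones in FPKM, overlapped them in TMM-normalized counts, and overlapped the 500 mOsm values. Srebf1 thus had log2 fold changes of 0.01 ± 0.0771 (SE, adjusted p 0.942) at 500 mOsm and 0.20 ± 0.0771 (adjusted p 0.0599) at 600 mOsm. In 6 alternative fits, among them that of only the 2 groups compared, Srebf1 at 600 mOsm passed the test (adjusted p 0.00663 to 0.0477). Scap had 55.3, 66.8 and 61.0 FPKM in the iso-osmolar libraries, 66.7, 73.1 and 60.0 FPKM at 500 mOsm and 67.5, 64.0 and 77.2 FPKM at 600 mOsm, with log2 fold changes of 0.13 ± 0.0975 and 0.21 ± 0.0975, and it passed at 600 mOsm in 3 alternative fits (adjusted p 0.00375 to 0.0498). These are transcript levels, and the cleaved, active SREBP proteins were not measured by these libraries.

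Stard4, which carries cholesterol between membranes and is a known sterol-regulated gene (ENSMUSG00000024378, chr18:33199355-33213862), had 12.7, 10.6 and 10.1 FPKM in the iso-osmolar libraries, 7.83, 6.44 and 7.95 FPKM at 500 mOsm and 6.13, 7.05 and 6.00 FPKM at 600 mOsm. All 6 sucrose libraries lay below the iso-osmolar ones. Its log2 fold change against iso-osmolar was -0.58 ± 0.0969 (SE) at 500 mOsm (adjusted p 0.000536) and -0.78 ± 0.098 at 600 mOsm (adjusted p 6.32e-05).

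Of the 7 genes of fatty acid synthesis and desaturation, 2 fell at 500 mOsm (28.6%, beside 14.8% of all genes) and 4 at 600 mOsm (57.1%, beside 20.0%). In either, 0 rose, beside 13.2% of all genes at 500 mOsm and 15.1% at 600 mOsm. The count was 0 in each also at an unadjusted p under 0.05 in edgeR, and by DESeq2 and limma. Fasn, the fatty acid synthase and the most abundant of the 31 genes per length (ENSMUSG00000025153, chr11:120805940-120824178), had 260.2, 287 and 268 FPKM in the iso-osmolar libraries, 211, 225 and 197 FPKM at 500 mOsm and 231, 221 and 239 FPKM at 600 mOsm. All 6 sucrose libraries lay below the iso-osmolar ones. At 500 mOsm Fasn differed from iso-osmolar by -0.36 ± 0.0645 (log2 fold change and SE, adjusted p 0.000901) and at 600 mOsm by -0.22 ± 0.0644 (adjusted p 0.0191). At 600 mOsm the call was lost without iso-osmolar replicate 2 or 600 mOsm replicate 1 or 2 (log2 fold changes -0.22 to -0.17, adjusted p 0.0554 to 0.0835), and with counts corrected for gene length the value turned to 0.08 (adjusted p 0.598). Acly, which makes cytosolic acetyl-CoA from citrate, had 115, 117 and 112 FPKM in the iso-osmolar libraries, 106, 107 and 104 FPKM at 500 mOsm and 97.1, 97.1 and 92.4 FPKM at 600 mOsm. Against iso-osmolar, Acly had a log2 fold change of -0.12 ± 0.042 (SE) at 500 mOsm, with an adjusted p of 0.0549, and of -0.25 ± 0.042 at 600 mOsm, with an adjusted p of 0.000685. At 500 mOsm Acly passed in 3 alternative fits (adjusted p 0.0312 to 0.0385).

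Scd1, a stearoyl-CoA desaturase, had 27.2, 25.3 and 24.5 FPKM in the iso-osmolar libraries, 23.4, 21.8 and 23.4 FPKM at 500 mOsm and 21.6, 21.3 and 20.1 FPKM at 600 mOsm. On the log2 scale, Scd1 differed from iso-osmolar by -0.16 ± 0.0521 (SE, adjusted p 0.0315) at 500 mOsm and by -0.27 ± 0.0523 (adjusted p 0.00163) at 600 mOsm. Its call at 500 mOsm was lost without iso-osmolar replicate 1 or 2 or 500 mOsm replicate 2 (log2 fold changes -0.17 to -0.13, adjusted p 0.0684 to 0.121). It was also lost with counts corrected for gene length (-0.13, adjusted p 0.125) or with the replicate number as a further factor (-0.16, 0.0513). Scd2, the more abundant desaturase here, had 179, 172 and 167 FPKM in the iso-osmolar libraries, 152, 152 and 169 FPKM at 500 mOsm and 155, 153 and 145 FPKM at 600 mOsm. Scd2 thus had log2 fold changes of -0.13 ± 0.0484 (SE, adjusted p 0.0704) at 500 mOsm and -0.17 ± 0.0485 (adjusted p 0.0159) at 600 mOsm, and the call at 600 mOsm was lost without iso-osmolar replicate 1 (-0.15, 0.0648) or 600 mOsm replicate 3 (-0.16, 0.0571). At 500 mOsm Scd2 passed without 500 mOsm replicate 3 (-0.17, adjusted p 0.0160). With counts corrected for gene length, the calls of Acly (-0.13, adjusted p 0.0927), Scd1 (-0.14, 0.0991) and Scd2 (-0.003, 0.977) at 600 mOsm were lost. Acaca, the acetyl-CoA carboxylase, ranged from 19.6 to 22.2 FPKM with log2 fold changes of -0.05 ± 0.0503 and -0.05 ± 0.0503, and the length correction turned the latter to 0.25 (adjusted p 0.0197). The desaturases of polyunsaturated fatty acids were not called. Fads1 ranged from 46.7 to 52.9 FPKM and Fads2 from 142 to 166 FPKM, with log2 fold changes of 0.01 ± 0.0411 and -0.10 ± 0.0412 for Fads1, which passed at 600 mOsm in 3 alternative fits (adjusted p 0.0319 to 0.0442), and 0.03 ± 0.0583 and -0.06 ± 0.0584 for Fads2.

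The 2 intensities were also compared directly. At 600 against 500 mOsm 2 of the 31 rose (6.45%, beside 11.9% of all genes) and 5 fell (16.1%, beside 17.2%). The share lower was thus near that of all genes. The median log2 fold change was -0.01, beside 0.01 over all genes. In TMM-normalized counts, all 600 mOsm libraries lay below all 500 mOsm libraries for 9 genes (22.3% of all genes) and above for 3 (19.3% of all genes). Insig1 fell by 0.39 on the log2 scale (SE 0.0645, adjusted p 0.000597) and Sc5d by 0.31 (SE 0.0818, adjusted p 0.012, and 0.0633 without 600 mOsm replicate 1). Ebp rose by 0.27 ± 0.0579 (adjusted p 0.00393) and Fdps by 0.21 ± 0.0515 (adjusted p 0.00749), and the Fdps call was lost with counts corrected for gene length (0.14, adjusted p 0.0925). That correction called Acaca (0.27, adjusted p 0.0157) and Fasn (0.42, adjusted p 0.0133) higher. Fasn was also called higher without a filter on low counts (0.16, adjusted p 0.0225) and without 500 mOsm replicate 2 (0.21, 0.0399). Fdft1 was called higher without 500 mOsm replicate 3 (0.25, adjusted p 0.0154), and Msmo1 lower without 500 mOsm replicate 1 (-0.29, 0.0415). Fads1 was called lower in 4 alternative fits (adjusted p 0.0348 to 0.0467) and Srebf1 higher in 3 (0.00539 to 0.0441).

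The other calls between the intensities were near the threshold. Hmgcs1 changed by -0.31 ± 0.105 (adjusted p 0.0437), Insig2 by -0.26 ± 0.0844 (adjusted p 0.0325) and Acly by -0.13 ± 0.042 (adjusted p 0.036). In the 9 fits that each left out 1 library, the Hmgcs1 call was lost in 6 (all but those without iso-osmolar replicate 1, 500 mOsm replicate 2 and 600 mOsm replicate 2), the Insig2 call in 5 (without any 500 mOsm replicate or without 600 mOsm replicate 1 or 3) and the Acly call in 7 (all but those without iso-osmolar replicate 2 and 500 mOsm replicate 3). Over all fits that lost the call, adjusted p ran from 0.0518 to 0.170 for Hmgcs1, from 0.0532 to 0.121 for Insig2 and from 0.0528 to 0.566 for Acly. The 2 comparisons with iso-osmolar share their control libraries.

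Per gene length, the iso-osmolar levels ran from Fasn, at a mean of 272 FPKM, through Fdps, Scd2, Fads2, Srebf2, Cyp51, Acly and Sqle down to Insig2 and Tm7sf2. Neighbours in this order overlapped in 14 of the 30 places, among them Fads2 with Srebf2, Cyp51 with Acly, and Insig1 with Hmgcs1. Summed over the 18 sterol enzymes the level was 838 ± 12.5 FPKM (SD, n = 3) in iso-osmolar medium, 691 ± 21.5 FPKM at 500 mOsm and 729 ± 4.18 FPKM at 600 mOsm. The 11 sterol-specific steps went from 400.1 ± 15.8 FPKM to 290.5 ± 19.7 and 295 ± 9.10 FPKM, the 7 fatty acid genes from 812 ± 24.4 FPKM to 726 ± 10.3 and 712 ± 8.11 FPKM, and the 5 regulators summed to 296 ± 14.1, 299.7 ± 13.7 and 298 ± 13.5 FPKM. Among the 14 genes lower at both intensities, iso-osmolar replicate 1 was the highest of its group in 10 and iso-osmolar replicate 3 the lowest in 10.

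Related genes were compared by the ratio of their FPKM values, with exact two-sided permutation tests over libraries, which cannot go below 0.1 with 3 libraries against 3. The Insig1/Insig2 ratio was 4.71, 4.75 and 4.75 in the iso-osmolar libraries, 3.70, 3.56 and 3.67 at 500 mOsm and 3.31, 3.16 and 3.56 at 600 mOsm. Both sucrose groups lay below the iso-osmolar one (exact p = 0.1 for each, 0.24 adjusted over 12 tests). The Srebf1/Srebf2 ratio was 0.361 to 0.370 in iso-osmolar medium, 0.337 to 0.369 at 500 mOsm and 0.394 to 0.432 at 600 mOsm, where it lay above both other groups (exact p = 0.1 for each). The Scd1/Scd2 ratio was 0.147 to 0.152 in iso-osmolar medium and 0.138 to 0.139 at 600 mOsm (exact p = 0.1), with 500 mOsm overlapping both, and the Fads1/Fads2 ratio overlapped in all 3 comparisons. None of the 12 tests passed the threshold.

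**Figure D5:**
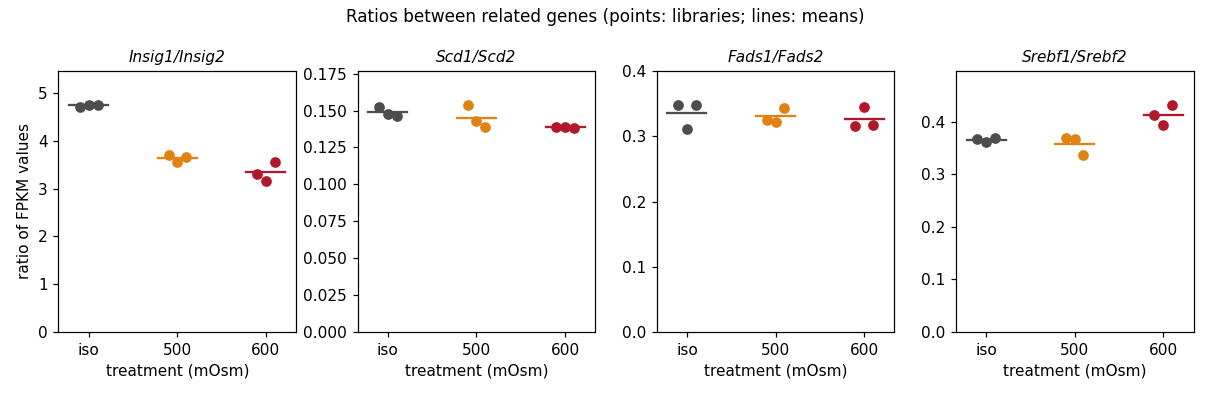
Ratio of FPKM values (y axes, from 0) for 4 pairs of related genes in iso-osmolar medium and at 500 and 600 mOsm (x axes), with 1 point per library and lines for group means. The Insig1/Insig2 points step down from 4.71 to 4.75 to below 3.8, and the Srebf1/Srebf2 points at 600 mOsm sit above the other 6.

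Other genes of the same biology were counted over lists. Of 15 further tested sterol and isoprenoid enzymes and lipoprotein receptors, 4 fell (26.7%) and 2 rose (13.3%) at 500 mOsm and 3 fell and 3 rose at 600 mOsm. Over all genes 14.8% fell and 13.2% rose at 500 mOsm, and 20.0% fell and 15.1% rose at 600 mOsm, so that the share higher at 500 mOsm and the share lower at 600 mOsm were near those of all genes. Of 23 genes of SREBP transport, cleavage and turnover, 6 fell (26.1%) and 0 rose at 500 mOsm (0 higher also at an unadjusted edgeR p under 0.05, and by DESeq2 and limma), and 5 fell (21.7%) and 2 rose (8.70%) at 600 mOsm. Trib1, a pseudokinase that is an adaptor for protein turnover, fell most of these, with log2 fold changes of -0.91 at 500 mOsm and -1.60 at 600 mOsm, and Sec24b, a cargo subunit of the COPII coat, had one of -0.96 at 600 mOsm. Of 18 genes of sterol efflux, transport and storage, 1 fell (5.56%) and 4 rose (22.2%) at 500 mOsm and 3 fell (16.7%) and 0 rose at 600 mOsm, where 5 were higher at an unadjusted edgeR p under 0.05 and DESeq2 and limma called 0 higher. Soat1, which esterifies cholesterol for storage, had log2 fold changes of -0.88 and -0.68, and Mylip, a ubiquitin ligase for lipoprotein receptors, rose to 10.0 to 11.7 FPKM at 500 mOsm from 2.81 to 3.22 FPKM and had 2.54 to 3.32 FPKM at 600 mOsm. Of 36 other fatty acid genes, 3 fell (8.33%) and 5 rose (13.9%) at 500 mOsm and 8 fell (22.2%) and 10 rose (27.8%) at 600 mOsm. Lpin1, a phosphatidate phosphatase, was lower at both (log2 fold changes -0.45 and -0.51), and Acacb, the mitochondrial acetyl-CoA carboxylase, was higher at both (0.59 and 0.56), from 0.375 to 0.424 FPKM in iso-osmolar medium.

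Some of the 31 genes share sequence with others, and how the counting treated shared reads is not given in the sources used here. Of the 31, 12 aligned to transcripts of another gene over 100 bases or longer, with 95% identity or higher. Acat2 shared 1477 bases with Acat3, Scd1 and Scd2 shared 623 bases with each other, and Fdps, Fdft1, Idi1 and Acaca shared 1066, 1249, 684 and 6118 bases with genes named Gm5873, Gm6781, Gm13502 and Gm5182. Tm7sf2 shared 532 bases with Vps51. Dhcr7, Msmo1, Insig1 and Hmgcs1 shared up to 226, 202, 189 and 160 bases with other genes. The values of all 12 are uncertain to that extent. On the genome 7 of the 31 overlap another gene, 6 of them on the opposite strand.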

How the data were processed

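Poly-A mRNA of 9 mouse embryonic fibroblast libraries was sequenced and aligned to mm10, with STAR and CASAVA 1.8 named in the submitters' processing notes. The counting tool and strand setting are not given in the sources used here. The authors deposited raw read counts per gene, without normalization, and FPKM made from them by gene length and library total. The 300 mOsm and 3 h come from the study's methods. The authors' 21 columns of group means, fold changes and p-values were not used.

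Counts were fitted in edgeR 4.0.16 (R 4.3.3) with TMM factors, filterByExpr (13082 genes), all 9 libraries and treatment as factor, by the quasi-likelihood test with Benjamini-Hochberg adjustment over all genes at 0.05. The SE is the absolute log2 fold change divided by the square root of F, with a median over genes of 0.0992 to 0.0997. The test was tried on simulated counts. Alternatives were RLE factors, library size alone, 2 other filters, DESeq2 1.42.0, limma 3.58.1 on log2 FPKM with 1 or 0.1 added, fits of only 2 groups, the replicate block, a correction for gene length, stricter thresholds and each library left out. Shared sequence was searched with blastn.

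Members and lists were chosen with earlier results of these data known. All 31 genes are named. Of the other lists, the rule was the 2 most changed called genes per direction and comparison, and the text names some of these. Single genes of the list of further sterol enzymes and receptors are not reported here although the rule would name them, and they remain in the counts.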

Additional observations from a re-analysis of the deposited data

How the results depend on the processing

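Of 41 called changes of the 31 genes, 23 were called with the same sign in every alternative fit at the adjusted p threshold of 0.05, and 18 were lost in one or more of these fits. Counts of called genes at 500 mOsm against iso-osmolar (0 higher, 15 lower) and the lower count at 600 mOsm (17) stayed within 1.5 times under every alternative but a threshold of 1 on the size of the log2 fold change, which left 0 genes in every comparison. The correction for gene length took away the lower calls at 600 mOsm of Lss, Acly, Fasn, Scd1 and Scd2. The last 4 are all the fatty acid genes called lower there. It also took away the higher call of Mvk (0.23, adjusted p 0.0597). The correction newly called Srebf1 (0.31, adjusted p 0.0212), Scap (0.31, 0.0494) and Acaca (0.25, 0.0197) higher at 600 mOsm. With that correction the median log2 fold change at 600 mOsm was -0.13 for the 31 genes and 0.04 for all genes. The count of genes higher at 600 mOsm (2) was 4 without a filter on low counts and with the correction for gene length. It was 1 at an adjusted p under 0.01. Over all genes, 2351 of 23419 were higher there without that filter and 2003 of 13082 with that correction, beside 1977 of 13082 in the main fit. Between the intensities (2 higher, 5 lower), no filter gave 4 higher and 3 lower, and an adjusted p under 0.01 gave 1 lower. Over all 23419 genes, no filter gave 1866 higher and 2598 lower between the intensities. With 1 library left out, 12 to 15 of the 31 genes were lower at 500 mOsm, and 1 to 5 higher and 14 to 18 lower at 600 mOsm. Between the intensities 2 to 4 were higher and 1 to 4 lower. Of the 13275 to 13447 genes tested in these fits, 1655 to 2007 were lower at 500 mOsm. At 600 mOsm 1395 to 2047 of these were higher and 2169 to 2660 lower, and between the intensities 1059 to 1556 were higher and 1878 to 2334 lower.

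In the fit with a replicate block, 13 genes were lower at 500 mOsm, and 1 was higher and 16 lower at 600 mOsm. Between the intensities 2 were higher and 2 lower. Over all 13082 genes that fit called 1681 lower at 500 mOsm (1931 in the main fit). At 600 mOsm it called 1525 higher and 2273 lower (main fit 1977 and 2617). Between the intensities it called 1153 higher and 1936 lower (main fit 1560 and 2250). Whether equal replicate numbers mark paired libraries is not given in the sources used here. After the group mean was taken off each gene, libraries with equal numbers correlated at a mean r of -0.229 over 9 pairs (-0.642 to 0.558). Those with unequal numbers correlated at 0.117 over 18 pairs, across 9461 genes. What remains of each gene cancels within a group, which ties these means to each other. The correlations therefore cannot decide whether the libraries were paired.

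Signs turned for values near 0, and for Fasn and Acaca at 600 mOsm, and the cause was not tested. Without a filter on low counts, values of the other sign were found at 500 mOsm for Ebp (-0.00201), Srebf1 (-0.00655) and Fads1 (-0.0111), and between the intensities for the median of the 31 genes (0.00805), Nsdhl (0.00805) and Srebf2 (0.00571). The correction for gene length turned the values at 600 mOsm for Acaca (0.254) and Fasn (0.0848), and between the intensities for the median of the 31 genes (0.0152), Acat2 (-0.00138), Pmvk (-0.0401), Lss (0.123), Srebf2 (0.0933) and Scd2 (0.0863). Acaca between the intensities was -0.0112 with library size alone, -0.0067 with at least 10 counts in every library, and -0.00954 and -0.00993 by limma with 1 and 0.1 added. With 1 library left out, log2 fold changes crossed 0 at 500 mOsm for Ebp (-0.0266 to 0.0722), Fads1 (-0.0133 to 0.021), Fads2 (-0.0126 to 0.0889), Sc5d (-0.0971 to 0.000599), Srebf1 (-0.051 to 0.0825) and Srebf2 (-0.00905 to 0.0928), and at 600 mOsm for Fads2 (-0.092 to 0.0066), Pmvk (-0.0883 to 0.0374) and Srebf2 (-0.0219 to 0.0792), and between the intensities for Acaca (-0.0166 to 0.0503), Acat2 (-0.0247 to 0.0752), Idi1 (-0.0394 to 0.158), Mvd (-0.00378 to 0.112), Nsdhl (-0.0845 to 0.113), Pmvk (-0.0241 to 0.102), Scap (-0.0147 to 0.17), Scd2 (-0.0707 to 0.00162), Srebf2 (-0.0468 to 0.0223), Tm7sf2 (-0.0271 to 0.147) and the median of the 31 genes (-0.0394 to 0.00755). Likewise the differences of these log2 ratios crossed 0 at 500 mOsm for Fads1/Fads2 (-0.0759 to 0.00407) and Srebf1/Srebf2 (-0.0557 to 0.0116), and between the intensities for Fads1/Fads2 (-0.0613 to 0.0101). The lowest count of any of the 31 genes in a library was 58, in Tm7sf2, which depth limited most.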
